A study of Mus musculus with 24 samples.

Results

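The genes Cd79a, Cd79b, Ms4a1, Cd22, Blk, Blnk, Ebf1, Pax5 and Ighm, which mark B cells, were read in RNA-seq libraries labelled as mouse T cells sorted for transplant experiments. They are 9 of the 35868 gene symbols to which the deposited transcripts were summed, and all 9 were found in the tables. They were selected on their measured levels in these same 8 groups, to size the B cell part of the T cell libraries. Their levels and ratios are therefore a description without a test, and tests are given for other genes.

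The study profiled CD4+ and CD8+ T cells sorted from spleen, with 3 libraries in each of 8 groups, 24 in all, and by the study's methods 3 mice per group from which both cell types were taken. Donors were heterozygous Cat-Tg mice on the C57BL/6 background, which carry an N-terminally truncated human β-catenin transgene cloned in the p1017 vector, or age and sex matched WT mice without it. Pre-tx cells were taken fresh from donor spleens. Post-tx cells were donor cells that carried H-2Kb, recovered 7 days after enriched CD4+ and CD8+ donor T cells were given to lethally irradiated BALB/c hosts. All those hosts also received T cell depleted WT bone marrow. Every Cat-Tg library has one prefix in its sample description and every WT library another, so whatever those prefixes stand for and the genotype cannot be told apart. The WT data were also used in earlier work of the same group. The labels do not say which library came from which mouse, so the spread between libraries may be partly technical.

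The libraries of 2 groups go against their labels. As a share of summed Cd8a and Cd4 TPM, Cd8a took 72.2%, 57.01% and 67.1% in the WT-labelled CD8 pre-tx libraries and 72.9%, 60.01% and 71.7% in the WT-labelled CD4 pre-tx libraries. In the 9 other CD8 libraries it took 96.96% or more, and in the 9 other CD4 libraries 3.29% or less. A list of 12 T cell genes summed to between 1916 and 3255 CPM (counts scaled to library size by TMM) in the 6 WT-labelled pre-tx libraries and to between 5187 and 15945 CPM in the other 18. Each comparison that uses the WT-labelled pre-tx libraries rests on them, and the comparisons within Cat-Tg and among post-tx groups do not. Whether the 6 WT-labelled pre-tx libraries hold sorted T cells, as labelled, or unsorted spleen cells was not settled. In the pre-tx comparisons the genotype and the kind of cells collected therefore cannot be told apart.

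A B cell reads antigen with an immunoglobulin on its surface. Ighm encodes the heavy chain of IgM, the first isotype it makes, and the Cd79a and Cd79b proteins pass the signal on inside the cell. Blk is a Src family kinase of that pathway, Blnk the adaptor that links it to downstream enzymes, and Cd22 a sialic acid-binding receptor that dampens it. Ms4a1 encodes the CD20 membrane protein, and Ebf1 and Pax5 are transcription factors that set and hold the B cell programme. T cells use Cd3 chains where B cells use the Cd79 pair. In bulk libraries, fewer cells of a type and less RNA per cell cannot be told apart.

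In genome build GRCm38 by the GENCODE M21 annotation, Cd79a lies on chromosome 7 from 24897381 to 24902197 and Cd22 on chromosome 7 from 30865402 to 30880342. Ighm lies on chromosome 12 from 113418558 to 113422730, among the constant genes of the heavy chain. Bases upstream of the RefSeq starts of Cd79a and Cd22 are shown because the levels of these genes, described below, parted on day 7. Each sequence runs 5′ to 3′ on the strand of its gene, lies outside every annotated exon of that gene, and has motif matches in capitals (RefSeq, GRCm38.p6).
Cd79a, chr7:24897247-24897380, plus strand: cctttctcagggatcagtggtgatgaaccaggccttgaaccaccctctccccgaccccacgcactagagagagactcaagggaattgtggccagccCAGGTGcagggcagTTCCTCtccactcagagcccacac
Cd22, chr7:30879029-30879176, minus strand: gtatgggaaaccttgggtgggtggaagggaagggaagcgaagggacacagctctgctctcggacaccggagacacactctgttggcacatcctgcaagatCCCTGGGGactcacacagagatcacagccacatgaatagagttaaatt
The motifs searched, on both strands, were the EBF core CCCNNGGG, the E-box CAGGTG, the octamer ATGCAAAT and the PU.1 core GAGGAA. The capitals in the Cd79a sequence mark an E-box 154 bases before the start and a PU.1 core, read on the opposite strand, 140 bases before it. Those in the Cd22 sequence mark an EBF core 48 bases before the start. Of 32851 RefSeq promoters, the 250 bases before the start held the EBF core in 11.8%, the E-box in 17.2%, the octamer in 1.60% and the PU.1 core in 23.3%. The stretches searched here are shorter, at 134 bases for Cd79a, ending 117 bases before the start, and 148 for Cd22. A match is thus a description only, and nothing is read from a motif that is absent. RefSeq entries were matched for 5 of the 9 members.

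Summed over the 9 members, the level was 10590.1, 9433 and 12340.3 CPM in the WT-labelled CD8 pre-tx libraries and 13169, 12871 and 12364 CPM in the WT-labelled CD4 pre-tx libraries. Cat-Tg pre-tx libraries gave 2356, 1003 and 1829.8 CPM for CD8 and 2519, 2069.9 and 2989 CPM for CD4. The WT-labelled pre-tx libraries were above all others. Post-tx, the sum was 497, 818 and 525 CPM in WT CD8, 795, 707 and 769 CPM in WT CD4, 797, 792 and 766 CPM in Cat-Tg CD8 and 1607, 1833 and 3309.7 CPM in Cat-Tg CD4. Cat-Tg CD4 was thus higher than the other post-tx groups without overlap. Of all counts in a library, the members took 1.46 ± 0.173% in WT-labelled CD8 pre-tx and 0.0429 ± 0.00403% in WT CD8 post-tx (mean ± SD, n = 3).

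Ighm made up most of the sum. The other 8 members reached 4279 ± 265 CPM in WT-labelled CD8 pre-tx, 6127 ± 626 in WT-labelled CD4 pre-tx, 254 ± 95.4 in Cat-Tg CD8 pre-tx and 481 ± 74.04 in Cat-Tg CD4 pre-tx (mean ± SD, n = 3). Post-tx they reached 58.5 ± 28.5 CPM in WT CD8, 51.1 ± 11.3 in WT CD4, 71.8 ± 5.61 in Cat-Tg CD8 and 66.97 ± 3.99 in Cat-Tg CD4 (mean ± SD, n = 3). Without Ighm, each post-tx group overlapped with the next one in order of means, and Cat-Tg CD4 no longer stood apart. In TPM, a level per transcript length that allows genes to be compared, Ighm took 50.2 ± 4.06% of the members' total in WT-labelled CD4 pre-tx and 97.1 ± 1.17% in Cat-Tg CD4 post-tx (mean ± SD, n = 3).

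**Figure D1:**
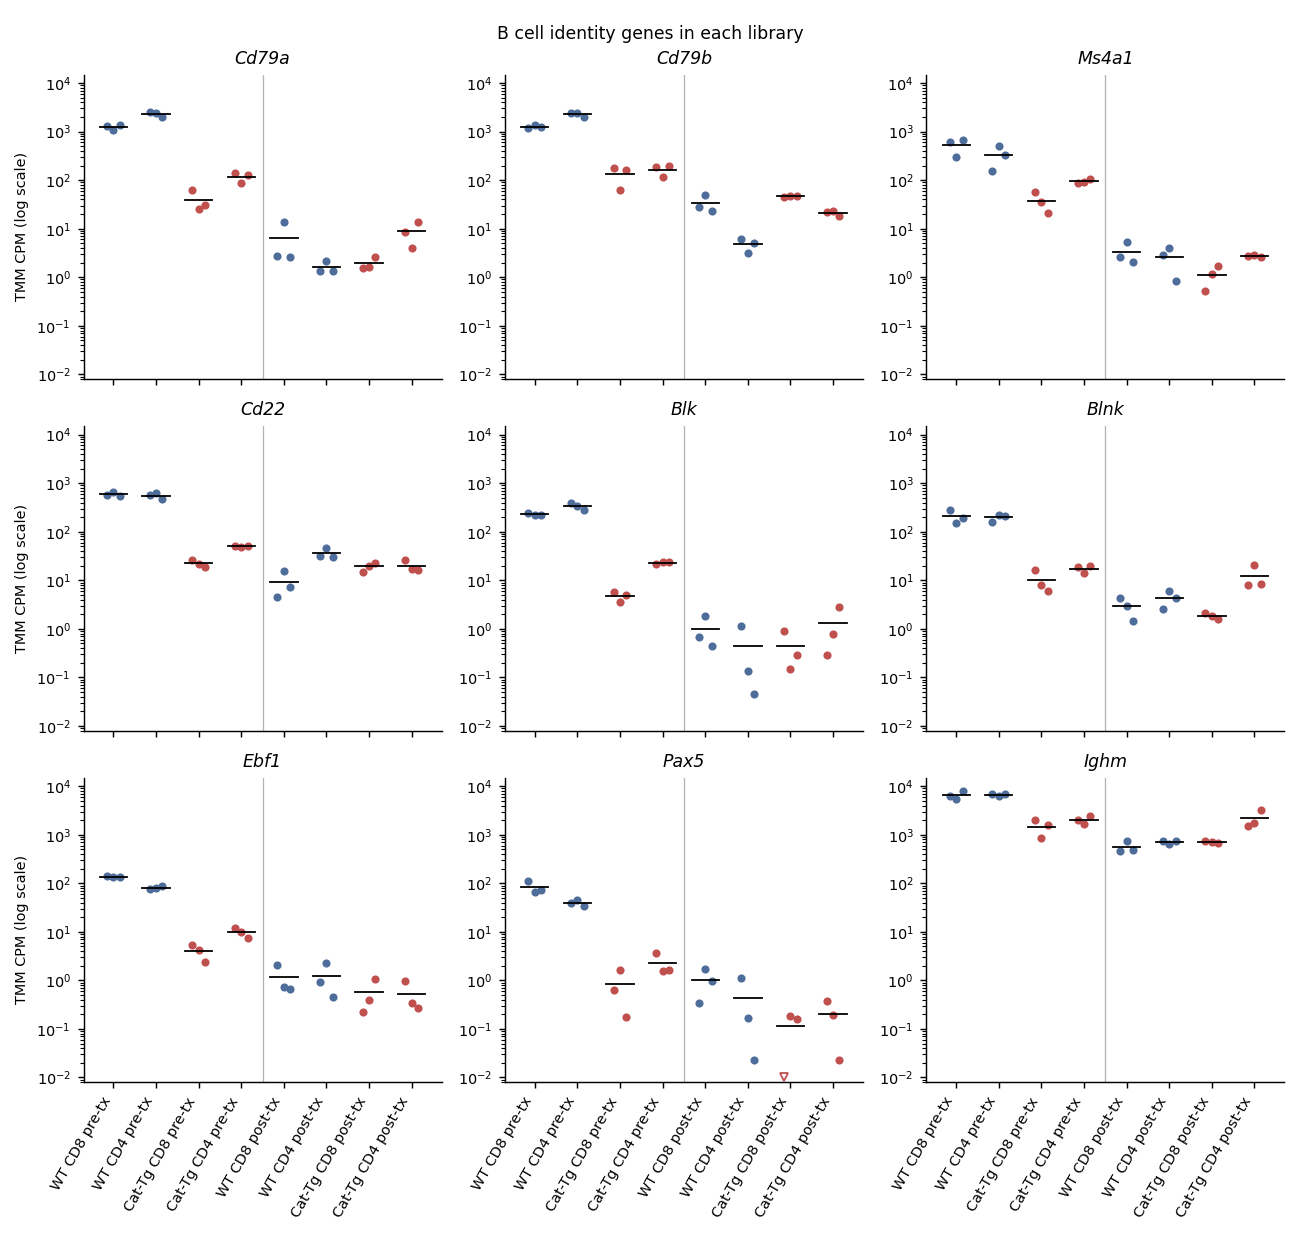
Level of each of the 9 genes by library, as TMM-scaled CPM on a log axis, with WT in blue and Cat-Tg in red, 3 points a group, a bar at the mean and a grey line between pre-tx and post-tx groups. The open triangle marks 1 Pax5 library at 0. Cd79b and Cd22 keep at or above 3.16 CPM and Ighm at or above 453 CPM in every library, while the post-tx points of Blk, Ebf1 and Pax5 reach under 1 CPM.

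Of the signalling chains, Cd79a stood at 1279.7, 1087 and 1375 CPM in WT-labelled CD8 pre-tx and 2568, 2386 and 2047 CPM in WT-labelled CD4 pre-tx. Cat-Tg pre-tx libraries had 61.9, 25.9 and 30.7 CPM for CD8 and 141, 89.1 and 127 CPM for CD4. The genotypes did not overlap, with a ratio of means of 31.6 in CD8 and 19.7 in CD4. Post-tx, Cd79a stood at 2.70, 13.96 and 2.63 CPM in WT CD8, 1.36, 2.12 and 1.33 CPM in WT CD4, 1.53, 1.65 and 2.60 CPM in Cat-Tg CD8 and 8.75, 4.07 and 13.8 CPM in Cat-Tg CD4. Replicate 2 of WT CD8 was well above the other libraries of its group, and every post-tx library was below the lowest pre-tx one.

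Cd79b, the partner of Cd79a in the receptor complex, fell less than Cd79a by day 7. It stood at 1182, 1364 and 1223 CPM in WT-labelled CD8 pre-tx, 2394, 2408 and 1962 CPM in WT-labelled CD4 pre-tx, 180.1, 64.1 and 159.7 CPM in Cat-Tg CD8 pre-tx and 184, 118 and 193 CPM in Cat-Tg CD4 pre-tx. Post-tx CD8 libraries still had 27.6, 48.99 and 23.7 CPM in WT and 45.7, 46.6 and 46.9 CPM in Cat-Tg. Post-tx CD4 libraries had 6.24, 3.16 and 5.17 CPM in WT and 22.03, 22.8 and 18.4 CPM in Cat-Tg. On day 7 Cd79b was higher in CD8 than in CD4 within each genotype without overlap, whereas in Cat-Tg Cd79a was lower in CD8 than in CD4, also without overlap.

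The membrane proteins Ms4a1 and Cd22 parted as well. Ms4a1, the CD20 gene, stood between 157 and 677 CPM in the WT-labelled pre-tx libraries, between 21.6 and 106 CPM in Cat-Tg pre-tx and between 0.521 and 5.27 CPM post-tx. Cd22, the inhibitory receptor, stood between 462 and 646 CPM in the WT-labelled pre-tx libraries, at 26.6, 21.5 and 18.6 CPM in Cat-Tg CD8 pre-tx and at 51.5, 48.2 and 50.8 CPM in Cat-Tg CD4 pre-tx. Post-tx, Cd22 was at 4.46, 15.8 and 7.41 CPM in WT CD8, 31.7, 45.9 and 29.5 CPM in WT CD4, 14.97, 20.1 and 22.9 CPM in Cat-Tg CD8 and 26.2, 17.4 and 16.1 CPM in Cat-Tg CD4. WT CD4 was the highest of the 4 post-tx groups without overlap, and Cat-Tg CD8 overlapped with its own pre-tx level. In Cat-Tg CD8 the ratio of pre-tx to post-tx means was 33.6 for Ms4a1 and 1.15 for Cd22.

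The kinase Blk stood between 218 and 383 CPM in the WT-labelled pre-tx libraries, at 5.67, 3.55 and 5.03 CPM in Cat-Tg CD8 pre-tx and at 21.4, 24.02 and 23.6 CPM in Cat-Tg CD4 pre-tx. Post-tx it was between 0.0451 and 2.84 CPM, and 9 of the 12 libraries were under 1 CPM. The adaptor Blnk stood between 149 and 285 CPM in the WT-labelled pre-tx libraries and between 6.13 and 19.4 CPM in Cat-Tg pre-tx. Unlike Blk, it was at 8.18, 20.5 and 8.35 CPM in Cat-Tg CD4 post-tx, which overlapped with Cat-Tg CD4 pre-tx at 18.4, 14.2 and 19.4 CPM. In the other 9 post-tx libraries Blnk was between 1.43 and 5.94 CPM.

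By TPM the transcription factors were the lowest of the 9 in the WT-labelled pre-tx libraries, with means of 62.5 and 25.9 TPM for Ebf1 and 31.6 and 16.6 TPM for Pax5 in CD8 and CD4. In CPM, Ebf1 stood between 77.7 and 142 CPM in the WT-labelled pre-tx libraries, between 2.35 and 12.3 CPM in Cat-Tg pre-tx and between 0.228 and 2.31 CPM post-tx. Pax5 stood at 110.3, 67.4 and 72.6 CPM in WT-labelled CD8 pre-tx, 39.4, 46.1 and 34.5 CPM in WT-labelled CD4 pre-tx, 0.646, 1.67 and 0.178 CPM in Cat-Tg CD8 pre-tx and 3.68, 1.54 and 1.62 CPM in Cat-Tg CD4 pre-tx. Of the 12 post-tx libraries, 10 were under 1 CPM for Pax5 and 9 for Ebf1. At these depths 3 counts make between 0.0596 and 0.27 CPM, and Pax5 had 3 counts or fewer in 3 libraries, 1 of them at 0, so no order is read among its post-tx groups.

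Ighm differed least between the genotypes pre-tx. It stood at 6173, 5461 and 7894 CPM in WT-labelled CD8 pre-tx, 6828, 6252 and 6941 CPM in WT-labelled CD4 pre-tx, 2002, 839 and 1586 CPM in Cat-Tg CD8 pre-tx and 2001, 1675 and 2460.4 CPM in Cat-Tg CD4 pre-tx. Post-tx it was at 453, 727 and 486 CPM in WT CD8, 747, 643 and 728 CPM in WT CD4, 731, 719 and 688 CPM in Cat-Tg CD8 and 1537, 1764 and 3247 CPM in Cat-Tg CD4. The 3 lower post-tx groups overlapped, and Cat-Tg CD4 post-tx overlapped with Cat-Tg CD4 pre-tx. In Cat-Tg CD4 the ratio of pre-tx to post-tx means was 0.937 for Ighm and 13.4 for Cd79a.

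Between the genotypes pre-tx, none of the 9 members overlapped in either cell type, and all were lower in Cat-Tg. The ratio of means ran from 4.41 for Ighm to 100.4 for Pax5 in CD8, and from 3.26 for Ighm to 19.7 for Cd79a in CD4. Over all genes tested, 4.48% were called lower in CD8 and 7.18% in CD4, but the selection used this contrast and nothing is read from the count. Post-tx in CD4, Cd79a, Cd79b, Blnk and Ighm were higher in Cat-Tg without overlap, with ratios of means of 5.53, 4.34, 2.87 and 3.09, against 3.69% of all genes called higher. Cd22 was lower without overlap, at 0.557, against 6.48% called lower. Post-tx in CD8, Cd79a, Ms4a1 and Pax5 did not overlap and were lower in Cat-Tg, where 0.570% of all genes were called lower and 1.10% higher. For Cd79a the nearest libraries of the genotypes were at 2.63 and 2.60 CPM, while Pax5 was close to its counting floor. Calls were made at an adjusted p of at most 0.05, which is a different measure from a lack of overlap. How many of all genes lacked overlap was not counted, so nothing is read from how many members did. Within Cat-Tg pre-tx, each member had the higher mean in CD4, from 1.22 times for Cd79b up to 4.85 times for Blk. The groups overlapped for Cd79b, Blnk, Pax5 and Ighm. CD4 and CD8 were not compared over all genes, so no share stands beside this.

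The balance of Cd79 and Cd3 transcripts set the B cell part on a scale within each library. Cd79a and Cd79b together, as a share of the TPM of these and Cd3d, Cd3e and Cd3g, took 83.1%, 83.8% and 83.8% in WT-labelled CD8 pre-tx and 86.3%, 87.7% and 87.5% in WT-labelled CD4 pre-tx. In Cat-Tg pre-tx the share was 7.22%, 2.54% and 5.15% for CD8 and 11.4%, 5.19% and 10.9% for CD4. Post-tx it was 1.07%, 2.42% and 1.21% in WT CD8, 0.344%, 0.326% and 0.323% in WT CD4, 1.60%, 1.63% and 1.90% in Cat-Tg CD8 and 2.64%, 1.88% and 1.82% in Cat-Tg CD4. WT CD4 post-tx was below all other groups without overlap. The share counts transcripts and not cells.

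Where Cd79a and Cd79b parted, the share depended on the genes used. With Cd79a and Cd3e alone, Cat-Tg CD8 post-tx went from 1.71% to 0.186% and Cat-Tg CD4 pre-tx from 9.16% to 23.4%. The WT-labelled pre-tx libraries went from 83.6% to 88.1% in CD8 and from 87.2% to 89.8% in CD4. WT CD8 post-tx went from 1.57% to 0.868% and WT CD4 post-tx from 0.331% to 0.287%. Cat-Tg CD8 then had the lowest post-tx mean, but its libraries, at 0.149%, 0.152% and 0.258%, overlapped with those of WT CD4, at 0.194%, 0.459% and 0.206%.

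**Figure D2:**
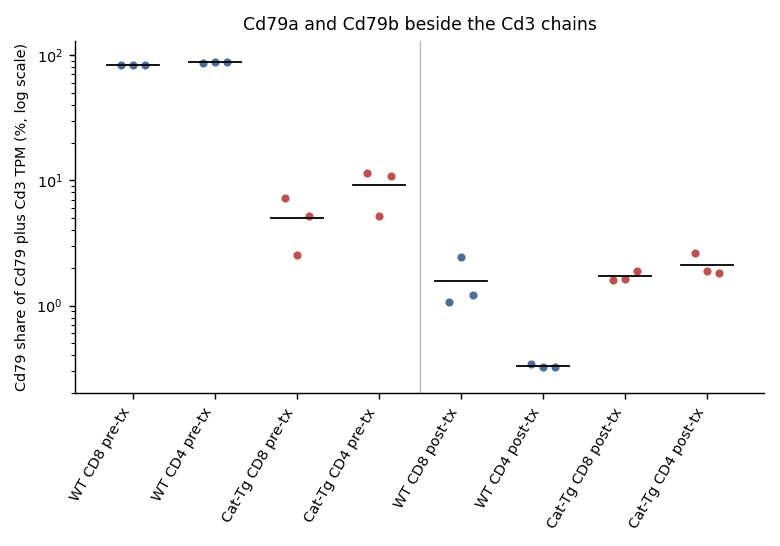
Cd79a and Cd79b as a percent of the summed TPM of Cd79a, Cd79b, Cd3d, Cd3e and Cd3g, on a log axis, for the 3 libraries of each group with bars at the means. The 6 WT-labelled pre-tx libraries lie between 83.1% and 87.7% and the other 18 between 0.323% and 11.4%.

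Each member's TPM was also divided by that of Cd79a in the same library, to see how far the 9 genes kept together. In WT-labelled CD4 pre-tx the ratio was 1.21 ± 0.0608 for Cd79b, 0.0918 ± 0.0107 for Cd22, 0.0838 ± 0.00503 for Blk and 2.58 ± 0.412 for Ighm (mean ± SD, n = 3). In Cat-Tg CD8 post-tx it was 31.2 ± 7.77 for Cd79b, 4.89 ± 1.14 for Cd22, 0.180 ± 0.213 for Blk and 358 ± 103 for Ighm (mean ± SD, n = 3). Over the 8 group means the ratio spanned 2.29-fold for Blk, 12.8-fold for Ms4a1, 24.6-fold for Blnk, 25.5-fold for Ebf1, 25.7-fold for Cd79b, 61.04-fold for Pax5, 93.7-fold for Cd22 and 169-fold for Ighm. By group means Blk kept closest to Cd79a, and Ighm and Cd22 departed furthest. Blk was under 1 CPM in 9 of the 12 post-tx libraries, so its post-tx ratios are uncertain.

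The correlation of each member's log2 CPM with the mean of the other 8 is given as a description, over libraries that share one scaling. Over all 24 libraries it ran from 0.902 for Ighm to 0.983 for Cd79a. Leaving out the WT-labelled pre-tx libraries, over 18 libraries, it ran from 0.461 for Cd22 to 0.970 for Ms4a1. Over the 12 post-tx libraries it was 0.769 for Ms4a1 and 0.760 for Cd79a, against -0.0702 for Cd79b and -0.255 for Cd22.

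**Figure D3:**
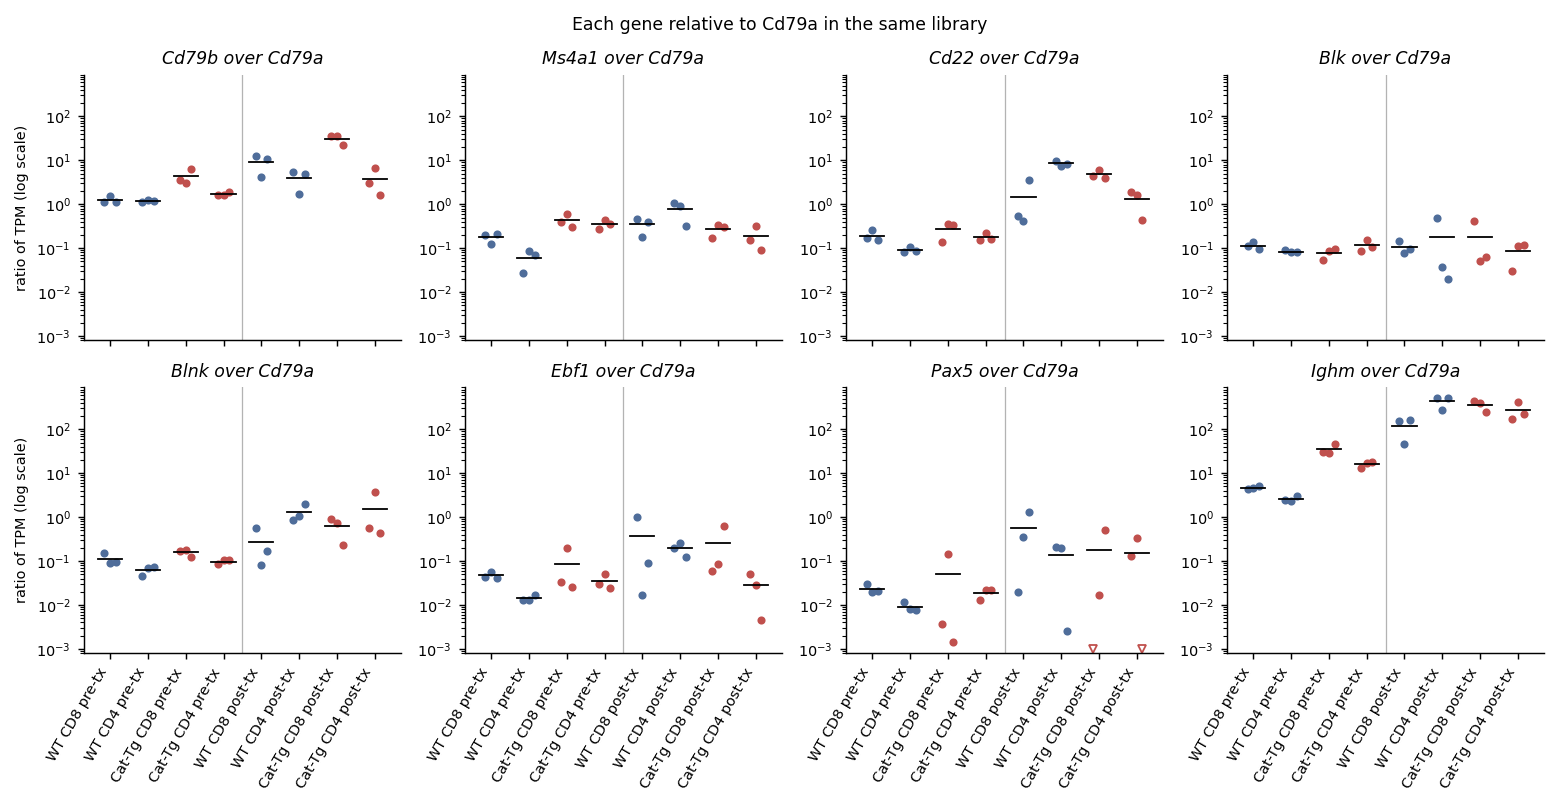
TPM of the other members divided by the TPM of Cd79a in the same library, on log axes, with WT in blue, Cat-Tg in red, 3 points a group and bars at the means. Open triangles mark ratios under 0.001. The group means of Ighm climb from 2.58 in WT-labelled CD4 pre-tx to 436 in WT CD4 post-tx, while those of Blk stay between 0.0791 and 0.181.

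The transcript tables hold 2 models of Ighm, a readout that the selection did not use. The shorter model has 4 exons and lacks the membrane exons, as secreted IgM does, and the longer has 6 exons and includes them. The shorter model took 53.3%, 60.98% and 64.3% of Ighm TPM in WT-labelled CD8 pre-tx, 52.4%, 38.9% and 54.7% in WT-labelled CD4 pre-tx, 67.8%, 62.7% and 63.4% in Cat-Tg CD8 pre-tx and 72.9%, 73.5% and 75.5% in Cat-Tg CD4 pre-tx. Post-tx it took 54.5%, 50.01% and 48.1% in WT CD8, 79.7%, 72.6% and 75.4% in WT CD4, 63.3%, 57.9% and 64.1% in Cat-Tg CD8 and 91.1%, 95.2% and 96.2% in Cat-Tg CD4. The 3 Cat-Tg CD4 post-tx libraries were above all others. The models share most of their sequence, so the split is kallisto's estimate.

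Ms4a1 also differed by transcript model. Its coding model with 7 exons took between 67.2% and 95.6% of Ms4a1 TPM in the 12 pre-tx libraries and between 0% and 58.5% in the 12 post-tx libraries. There the remainder was assigned to models annotated as retained introns. Among the post-tx groups the coding share was highest in Cat-Tg CD4, at 58.5%, 51.6% and 49.9%.

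The variable genes gave a further readout outside the selection. A B cell's immunoglobulin transcript carries a rearranged variable segment ahead of the constant region, and the Ighv genes count these segments for the heavy chain. Of 113 Ighv genes, between 84 and 100 had 3 counts or more in the WT-labelled pre-tx libraries and between 59 and 86 in Cat-Tg pre-tx. Post-tx there were 18, 11 and 16 in WT CD8, 32, 35 and 42 in Cat-Tg CD8, 53, 55 and 41 in WT CD4 and 59, 85 and 92 in Cat-Tg CD4. Per 100 Ighm counts, Ighv genes had 26.8, 11.4 and 15.3 counts in WT-labelled CD8 pre-tx and 16.9, 10.9 and 12.6 in WT-labelled CD4 pre-tx. Cat-Tg pre-tx libraries had 3.86, 5.76 and 3.39 for CD8 and 7.84, 7.19 and 7.11 for CD4. On day 7 they had 2.30, 0.816 and 1.21 in WT CD8, 6.06, 3.90 and 4.21 in WT CD4, 2.58, 2.67 and 3.02 in Cat-Tg CD8 and 12.003, 13.4 and 17.2 in Cat-Tg CD4. Within Cat-Tg, CD8 was lower on day 7 than pre-tx and CD4 higher, both without overlap, and Cat-Tg CD4 post-tx lay in the range of the WT-labelled pre-tx libraries. The most counted Ighv gene held between 4.95 and 25.02% of Ighv counts in each library. Variable genes resemble each other closely, so counts of single segments are uncertain. The number of genes with 3 counts or more also depends on depth. In Cat-Tg CD4 post-tx, replicate 1 had 11135713 counts and replicate 2 had 50519825. Ighv segments also join constant genes other than Ighm, so the ratio does not concern IgM alone.

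The light chain and the secreted antibody genes were read beside Ighm. Igkc, the kappa constant gene, stood at 862, 859.9 and 1848 CPM in Cat-Tg CD4 post-tx, 169, 119 and 178 CPM in WT CD4 post-tx and between 58.7 and 116 CPM in the CD8 post-tx libraries. Jchain, which joins IgM into pentamers, stood at 28.1, 80.7 and 151 CPM in Cat-Tg CD4 post-tx and 15.96, 9.79 and 10.1 CPM in WT CD4 post-tx. Ighg1, a constant gene of class-switched IgG, stood at 367, 87.2 and 619 CPM in Cat-Tg CD4 post-tx, 5.62, 4.90 and 0.948 CPM in WT CD4 post-tx and 4.39, 4.38 and 2.78 CPM in Cat-Tg CD4 pre-tx. These 3 genes were higher in Cat-Tg than in WT CD4 on day 7 without overlap. Ighd, which naive B cells express with Ighm, stood at 2.12, 4.25 and 3.08 CPM in Cat-Tg and 3.09, 2.75 and 2.30 CPM in WT CD4 post-tx and overlapped.

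**Figure D4:**
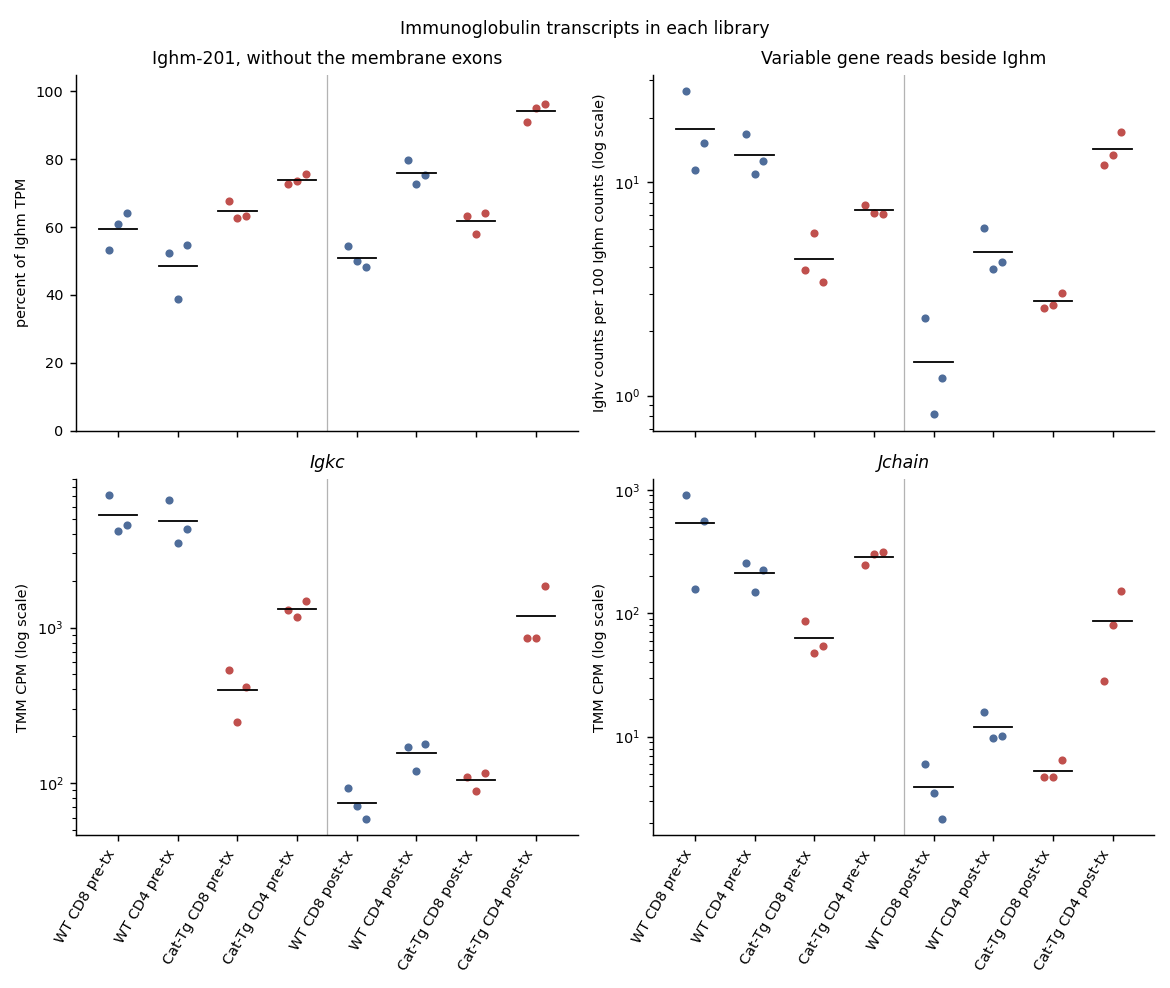
The 4 panels give, for the 3 libraries of each group with bars at the means, the share of Ighm TPM in the model without membrane exons (percent), Ighv counts per 100 Ighm counts (log axis), and the levels of Igkc and Jchain (TMM CPM, log axes). Cat-Tg CD4 post-tx, at the far right of each panel, is the highest post-tx group in all 4.

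Genes outside the 9 were then tested, as a list of 44 other B cell genes of receptor signalling (18), transcription factors (12) and the mature surface (14). The list was written with earlier results of these data known, and genes such as Fcer2a and Spib followed the members closely. Its counts are therefore a description and no independent support for the levels of the 9. A gene was called at an adjusted p of at most 0.05 in edgeR's quasi-likelihood test over all genes, 15975 in CD8 and 17243 in CD4. In CD8 pre-tx 33 of the 44 were lower in Cat-Tg than in WT-labelled libraries and the other 11 were not called, against 4.48% of all genes lower and 4.51% higher. The median log2 fold change was -3.69 for the list and -0.07 for all genes. In CD4 pre-tx 38 were lower and 6 not called, against 7.18% lower and 13.3% higher, with medians of -1.96 and 0.03. With DESeq2 size factors the higher calls made up 51.8% of all calls in CD4 pre-tx in place of 64.9%, as the median of all genes moved by -0.20.

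Syk, the kinase that the receptor chains recruit, was lower in Cat-Tg pre-tx, with a log2 fold change in CD8 of -5.89 ± 0.98 (SE, adjusted p = 0.0018) and in CD4 of -2.93 ± 0.49 (SE, adjusted p = 0.000616). The downstream kinase Btk was lower too, by log2 values of -3.43 in CD8 and -2.62 in CD4. Btk lost its call in CD8 without Cat-Tg replicate 1, Cat-Tg replicate 3 or WT replicate 1, at -3.13 to -3.48. Among the factors, the log2 fold change in CD8 and CD4 was -4.69 and -3.77 for Spib, -3.97 and -2.38 for the octamer coactivator Pou2af1, and -3.78 and -3.12 for Bcl11a. Among the surface genes it was -5.63 and -4.09 for Fcer2a, the CD23 gene, -3.91 and -3.64 for Cd40, and -4.59 and -3.83 for the BAFF receptor gene Tnfrsf13c. All of these were called.

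Of 10 immunoglobulin constant genes tested, 9 were lower in Cat-Tg CD8 pre-tx, with log2 fold changes of -4.26 for Ighd, -3.71 for Igkc and -3.65 for Iglc1. In CD4 pre-tx 6 were lower, with -2.91 for Ighd and -1.64 for Igkc, while Iglc1 at -1.38 was not called (adjusted p = 0.315). Jchain was lower in CD8 (-3.11) and was not called in CD4 (0.68, adjusted p = 0.289). Of the plasma cell genes tested, 5 of 7 were lower in CD8 and 5 of 8 in CD4, against 4.48% and 7.18% of all genes. None of them was higher. Other cell types moved beside them. Of 12 myeloid genes, 7 were lower in CD8 and 3 in CD4, and of 12 T cell genes, 8 were higher in CD8 and 11 in CD4. Of 6 erythroid genes none was called in CD8, and 4 were lower in CD4 at a median log2 fold change of -3.15, below the -1.96 of the 44 B cell genes. The erythroid genes summed to between 4987 and 14261 CPM in WT-labelled CD4 pre-tx and to between 873 and 1518 CPM in Cat-Tg CD4 pre-tx. The myeloid genes summed to between 1616 and 5094 CPM in the WT-labelled pre-tx libraries and to between 463 and 2442 CPM in Cat-Tg pre-tx, with no gene of either list at 0 throughout a group. Their part in the result was not tested.

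In CD8 post-tx few of the 44 genes differed between the genotypes. Fcgr2b, the inhibitory IgG receptor (log2 2.27, adjusted p = 0.0457), and the lipid phosphatase Inpp5d (1.89) were higher in Cat-Tg, and Spib (-2.704) was lower, against 1.10% of all genes higher and 0.570% lower. Genes entered the test above 1 CPM in any 3 of the 12 libraries of a cell type, which the WT-labelled pre-tx libraries alone can supply. Spib, which changed by -6.18 in WT CD8 by day 7, may have entered so, and nothing is read from its call. Fcgr2b, Inpp5d and Spib each depended on single libraries. Fcgr2b lost its call without Cat-Tg replicate 1 or 2 or WT replicate 3 (1.73 to 2.54), Inpp5d without Cat-Tg replicate 1 or 2 (1.83 to 1.90), and Spib without the same 2 libraries (-2.60 to -2.79). The count of higher genes was 0 without Cat-Tg replicate 1 or 2 and 4 without WT replicate 2, in place of 2. Igkc at 0.42 (adjusted p = 0.54) and Jchain at 0.39 (adjusted p = 0.733) were not called.

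In CD4 post-tx 13 of the 44 were higher in Cat-Tg and 2 lower, against 3.69% of all genes higher and 6.48% lower, and the median log2 fold change was 0.60 for the list and -0.19 for all genes. Of the 13, 7 are signalling genes, 1 is the factor Spi1 (2.11), and 5 are surface genes. The signalling genes were Syk (1.96), Lyn (2.05), Plcg2 (1.31), Bank1 (1.82), Dok3 (2.31), Fcgr2b (2.93) and Cd81 (1.81). Not called were 10 signalling genes, 11 factors and 8 surface genes, and the medians of these lists were 0.87, -0.07 and 0.33. Among those not called were Spib (-0.04), Pou2af1 (0.89), Bcl11a (1.17), Fcer2a (-0.28), Cd40 (0.004) and Tnfrsf13c (-0.36). The higher surface genes were the IgM receptor Fcmr (2.05), Ly86 (1.82), Cd24a (3.203), the invariant chain Cd74 (2.34) and the class II loading gene H2-DMb2 (1.88). Myeloid cells also express some of the 13, such as Spi1 and Cd74, and 9 of 12 myeloid genes were higher in the same comparison. The part of myeloid cells in the 13 calls was not tested. Cr2, the complement receptor (-1.96), and Cxcr5, the follicle homing receptor (-2.28), were lower. By day 7 in WT CD4, Cr2 and Fcmr had changed by log2 values of -7.08 and -11.3. They may have entered the test through the WT-labelled pre-tx libraries alone, so nothing is read from their post-tx calls. Fcmr lost its call without any 1 of the 3 Cat-Tg libraries or WT replicate 1 or 3 (1.48 to 2.30), and Cr2 without Cat-Tg replicate 3 or WT replicate 2 (-1.38 to -1.67).

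Antibody genes were higher in the same comparison. Of 10 constant genes 8 were called higher in Cat-Tg CD4 post-tx, with a median log2 fold change of 4.65, and Igkc gave 2.701 ± 0.32 (SE, adjusted p = 0.000194). Iglc1 gave 4.22. Of 8 plasma cell genes 4 were higher, namely Jchain (2.602), the factor Xbp1 (1.04), the secretory chaperone Mzb1 (4.30) and Derl3 (2.71). Without Cat-Tg replicate 3 or WT replicate 2, Iglc1 (3.36 to 3.88) and Derl3 (1.76 to 2.61) lost the call, and Xbp1 lost it without Cat-Tg replicate 3 (0.88). Beside these, 9 of 12 myeloid and 6 of 6 erythroid genes were higher and 2 of 12 T cell genes lower. Myeloid genes summed to between 6706 and 7963 CPM in Cat-Tg and 1155 and 1793 CPM in WT CD4 post-tx, and erythroid genes to between 2504 and 14001 CPM and 338 and 563 CPM, with none at 0 throughout a group. Their part in the result was not tested.

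**Figure D5:**
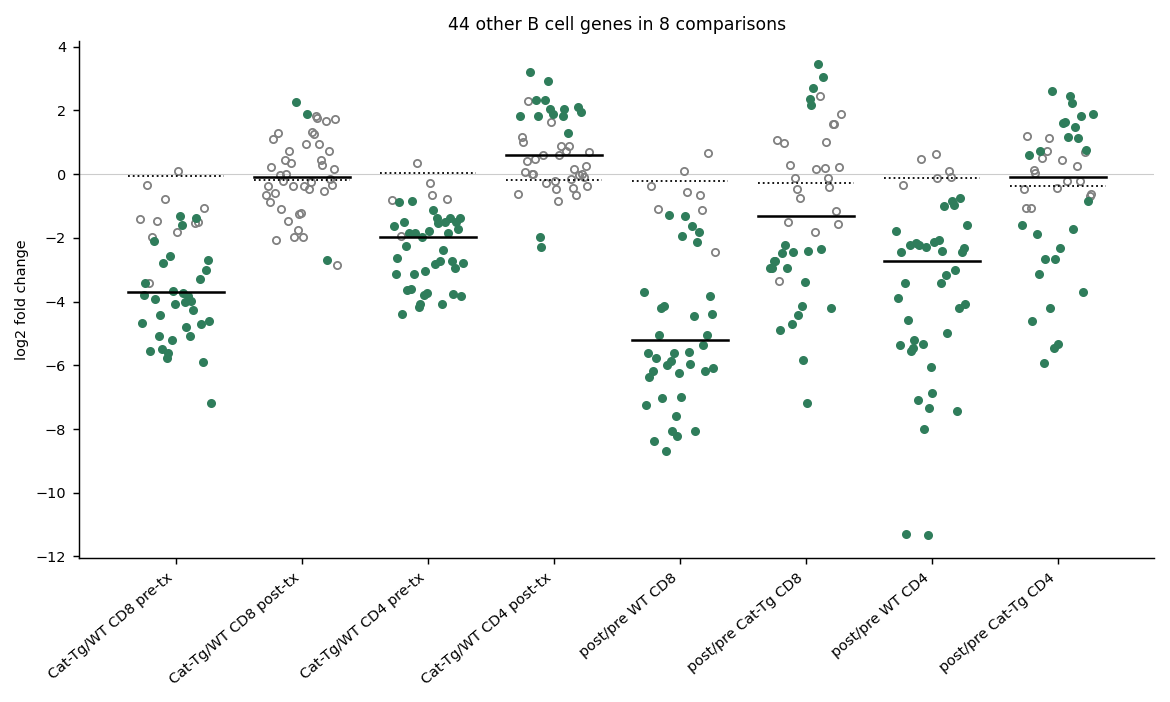
Log2 fold change of the 44 other B cell genes in 8 comparisons, with called genes filled in green and the others open, a solid line at the list's median and a dotted line at the median of all genes tested. The list's medians run from -5.20 in WT CD8, post-tx against pre-tx, to 0.60 in CD4 post-tx, Cat-Tg against WT.

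Day 7 was compared with pre-tx within each genotype. In WT 36 of the 44 genes were lower on day 7 in CD8, against 10.4% of all genes lower and 13.2% higher, and 38 in CD4, against 9.64% lower and 14.8% higher. The list's median was -5.201 in CD8 and -2.72 in CD4. In CD8 and CD4 the log2 fold change was -6.18 and -7.43 for Spib, -7.45 and -7.904 for Ighd, -6.04 and -4.82 for Igkc, and -7.03 and -3.99 for Jchain. Both comparisons start from the WT-labelled pre-tx libraries, and genes of other cell types moved in them. In CD8, 8 of 12 myeloid and 6 of 6 erythroid genes were lower on day 7 and 10 of 12 T cell genes higher, at list medians of -2.85, -3.62 and 2.54. In CD4, 1 myeloid and 5 erythroid genes were lower and 12 T cell genes higher, at list medians of -0.26, -4.07 and 1.45. Their part in the result was not tested.

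In Cat-Tg, whose pre-tx libraries follow their labels, 18 of the 44 were lower on day 7 in CD8 and 5 higher, against 5.25% of all genes lower and 8.73% higher. Fcer2a changed by -4.41 ± 0.82 (SE, adjusted p = 0.00309) on the log2 scale, Spib by -4.197, Cr2 by -4.69 and Igkc by -1.91. The 5 higher genes were the signalling adaptor Pik3ap1 (3.45), Inpp5d (2.17), and the factors Pou2f2 (3.06), Irf8 (2.69) and Ikzf3 (2.37), which leukocytes other than B cells can also express. Of 12 myeloid genes 5 were higher and 3 lower, of 12 T cell genes 1 was higher, and of 6 erythroid genes none was called. Their part in the result was not tested.

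In Cat-Tg CD4 14 of the 44 were lower on day 7 and 13 higher, against 29.0% of all genes lower and 16.2% higher, so that the lower share was near that of all genes. Fcer2a changed by -4.19 ± 0.50 (SE, adjusted p = 2.6e-05), Cr2 by -5.92 and Spib by -3.698. The higher factors were Pou2f2 (1.47), Irf8 (1.65), Spi1 (1.84) and Tcf3 (0.76), and the higher surface gene was Cd74 (0.73). Pou2f2 lost its call without post-tx replicate 1 (0.66), Tcf3 without pre-tx replicate 2 or 3 or post-tx replicate 1 (0.57 to 0.72), and Cd74 without pre-tx replicate 2 (0.56). In the same comparison 9 of 12 myeloid genes, at a list median of 2.19, and 5 of 6 erythroid genes, at 2.603, were higher, and 5 of 12 T cell genes were lower. The myeloid genes summed to between 1729 and 2410.4 CPM pre-tx and 6706 and 7963 CPM on day 7, and myeloid cells also express Pou2f2, Irf8, Spi1 and Cd74. Their part in the result was not tested.

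The Cat-Tg effect post-tx was set against that pre-tx by the interaction term of the same edgeR fit. It was called higher post-tx for 28 of the 44 B cell genes in CD8, against 5.93% of all genes higher and 4.77% lower, and for 32 in CD4, against 7.27% and 14.1%. Of 10 immunoglobulin constant genes 9 were called higher in each cell type. Of 12 myeloid genes 9 were called higher in CD8 and 10 in CD4, of 6 erythroid genes 1 and 6, and of 12 T cell genes 6 and 9 were called lower. These differences rest on the WT-labelled pre-tx libraries.

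The constant genes moved in both directions in Cat-Tg CD4. Of 10 tested, 4 were lower on day 7 and 4 higher, against 29.0% of all genes lower and 16.2% higher. Nothing is read from the count of lower genes. Ighd changed by -4.98 on the log2 scale and was called lower on day 7 with Iglc2, Iglc3 and Igha. The 4 IgG genes Ighg1 (6.199), Ighg2b (1.27), Ighg2c (3.22) and Ighg3 (2.05) were called higher. Igkc at -0.49 was not called (adjusted p = 0.191). Of 8 plasma cell genes 3 were called higher, namely Prdm1, Xbp1 and Irf4, and only Jchain was lower (-2.07). The other 4, Sdc1, Tnfrsf17, Mzb1 and Derl3, were not called. In Cat-Tg CD8 the same 3 were called higher on day 7, and Jchain and Mzb1 lower. Ighg2b lost its call without pre-tx replicate 1 or 2 or post-tx replicate 3 (0.64 to 1.5), and Ighg2c without pre-tx replicate 1 or 2 or post-tx replicate 2 or 3 (2.78 to 3.49). The IgG genes resemble each other, so reads can be split among them.

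Of 18883 genes ranked, leaving out members and immunoglobulin segments, those whose log2 CPM followed the members' mean most closely over 24 libraries included Fcer2a (r = 0.983), Fcmr (0.981), Spib (0.980), Ighd (0.974), Ly6d (0.974), Cr2 (0.969), Trim7 (0.958), Mef2c (0.955) and Ell3 (0.954). Over the 18 libraries without the WT-labelled pre-tx ones, r for these 9 ran from 0.790 for Ell3 to 0.970 for Ly6d. The libraries share their scaling, and these values carry no test.

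Genes of immature B cells were scarce. The 8 precursor genes, which include the surrogate light chain genes Igll1 and Vpreb2, summed to between 62.5 and 153 CPM in the WT-labelled pre-tx libraries, between 12.97 and 23.1 CPM in Cat-Tg pre-tx and between 1.96 and 8.58 CPM post-tx. Igll1 and Vpreb2 were at 0 in all 3 Cat-Tg CD8 post-tx libraries, and Vpreb2 also in WT CD8 post-tx and Cat-Tg CD4 pre-tx.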

How the data were processed

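RNA from cells labelled as sorted T cells was amplified with a full-length cDNA kit, and per the labels the authors ran kallisto 0.46.2, whose deposited tables give an estimated count and a TPM value per transcript. The labels name genome build mm9, and the transcript index is not given in the sources used here. Of 117497 transcripts, 116428 matched GENCODE M21 (GRCm38) and held 99.6% to 99.8% of the counts. Estimated counts deposited by the authors were summed to 35868 symbols and rounded, with totals of 11135713 to 50519825 per library (median 27062440). TPM, as deposited, was summed per gene.

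For CD8 and for CD4, 1 model of 12 libraries was fitted with edgeR 4.0.16 in R 4.3.3 (TMM, robust quasi-likelihood test) on genes above 1 CPM in at least 3 libraries, with Benjamini-Hochberg adjustment over all genes. The SE was derived from the fold change and its F statistic. DESeq2 1.42.0 and limma 3.58.1 served as alternatives, where the study's methods give voom and limma on TPM. The fits were tested on simulated data. P values measure the spread between libraries.

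The members and gene lists were chosen with earlier results of these data known. Named are all members, the first 3 genes of each list, genes of called counts of 5 or fewer, and the 10 genes of most similar pattern (log2 CPM, prior count 2). The 7 signalling genes called in CD4 post-tx were named as well. The sequences shown and the IgG levels were chosen after their values were seen. One item that the rule names is not reported here.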

Additional observations from a re-analysis of the deposited data

Results flagged for a closer look

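The Cat-Tg effect, post-tx against pre-tx, was compared by the interaction term of the same edgeR fit (adjusted over all genes). It was called higher post-tx for 28 of the 44 B cell genes in CD8 and 32 in CD4. Among the genes named with values in both comparisons of a cell type, 6 gene and cell type pairs were called. In CD8 the log2 difference, post-tx minus pre-tx, was 4.14 ± 0.53 (SE, adjusted p = 0.000426) for Igkc and 3.49 ± 0.80 (SE, adjusted p = 0.011) for Jchain. In CD4 it was 4.89 ± 0.67 (SE, adjusted p = 0.000206) for Syk, 4.34 ± 0.44 (SE, adjusted p = 1.35e-05) for Igkc, 5.59 ± 1.27 (SE, adjusted p = 0.00963) for Iglc1 and 1.92 ± 0.59 (SE, adjusted p = 0.0299) for Jchain. All of these rest on the libraries labelled WT pre-tx, whose Cd4 and Cd8a levels go against their labels.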

How the results depend on the processing

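With the library total the summed level was 14571 CPM in WT-labelled CD8 pre-tx, 13752 in WT-labelled CD4 pre-tx, 429 in WT CD8 post-tx, 912 in WT CD4 post-tx and 618 in Cat-Tg CD8 post-tx. With length-scaled TPM it was 10754 CPM in WT-labelled CD4 pre-tx, 833 in WT CD4 post-tx and 839 in Cat-Tg CD8 post-tx, and with DESeq2 size factors 755 in Cat-Tg CD8 post-tx. Without Ighm it was 4279, 6127, 254 and 481 CPM in WT-labelled CD8, WT-labelled CD4, Cat-Tg CD8 and Cat-Tg CD4 pre-tx, and 58.5, 51.1, 71.8 and 67.0 CPM in the same groups post-tx. With Cd79a and Cd3e alone, the Cd79 share was 88.1% and 89.8% in WT-labelled CD8 and CD4 pre-tx, 7.86% and 23.4% in Cat-Tg CD8 and CD4 pre-tx, 0.287% in WT CD4 post-tx and 0.186% in Cat-Tg CD8 post-tx. Of the 44 B cell genes, the 2 higher in Cat-Tg CD8 post-tx became 1 when a log2 fold change of 2 in either direction was also asked for, with limma-voom or DESeq2 size factors, 0 with only the 6 libraries compared, and 0 to 4 when 1 library was left out. With the fold threshold, the 38 lower in CD4 pre-tx became 21 and the 13 higher in CD4 post-tx became 7. Leaving out 1 library gave 29 to 32 lower in CD8 pre-tx, 32 to 39 lower in CD4 pre-tx, 10 to 13 higher in CD4 post-tx, and on day 7, 33 to 40 lower in WT CD8, 36 to 38 in WT CD4, 13 to 17 in Cat-Tg CD8 and 11 to 14 in Cat-Tg CD4. The replicate block, with same-numbered libraries correlating between -0.252 and 0.198 and no comparison in which all 3 exceeded 0.1, gave 1 gene in place of 2 for CD8 post-tx. It also took the call from Fcgr2b, Fcmr and Iglc1 and changed no other call among the gene comparisons followed under alternatives. Over all genes, higher and lower calls in CD8 post-tx were 175 and 91, against 592 and 716 with DESeq2, 372 and 179 without a filter, 77 and 33 with the replicate block, and 16 and 14 with only 6 libraries. In CD8 pre-tx they were 720 and 716 against 1223 and 1375 with DESeq2, and higher calls were 1296 with only 6 libraries. Lower calls in CD4 pre-tx were 1238 against 2203 with DESeq2, and in CD4 post-tx 1117 against 605 with limma-voom and 382 with only 6 libraries, while higher calls there were 637 against 1029 with DESeq2. Day 7 lower calls were 839 in Cat-Tg CD8 against 2333 with DESeq2 and 1906 with only 6 libraries, and 1662 in WT CD4 against 2568 with DESeq2. Day 7 higher calls were 2107 in WT CD8 against 1139, and 1395 in Cat-Tg CD8 against 2565, with only 6 libraries. The fold threshold left 357 higher in CD8 pre-tx, 60 lower in CD8 post-tx, 860 higher and 462 lower in CD4 pre-tx, 396 higher in CD4 post-tx, and on day 7, 1303 higher in WT CD8, 859 in Cat-Tg CD8, 730 higher and 987 lower in WT CD4 and 888 higher in Cat-Tg CD4 (2799 without it). All-gene calls in CD8 post-tx rested on single libraries, with 4 higher and 2 lower without Cat-Tg replicate 1, 4 and 1 without Cat-Tg replicate 2, and 398 and 172 without WT replicate 2. Other all-gene counts, and with them the shares that list counts are read against, also moved over 1.5 times without 1 library. Their extremes were 284 higher and 363 lower in CD8 pre-tx without Cat-Tg replicate 3, 1187 higher in CD4 pre-tx without WT replicate 1, 744 lower there without Cat-Tg replicate 2, 402 higher in CD4 post-tx without WT replicate 2 and 362 lower there without Cat-Tg replicate 3. On day 7 they were 280 lower and 696 higher in Cat-Tg CD8 without post-tx replicate 2, 1399 lower there without post-tx replicate 3, 1376 higher in WT CD8 without post-tx replicate 3, 1092 lower there without pre-tx replicate 1, 1416 higher in WT CD4 without pre-tx replicate 3 and 901 lower there without post-tx replicate 3. The cause of these shifts was not tested. For named genes other than the members, 79 gene comparisons were followed under alternatives. They gave 1026 values, of which 60 lost the call, 2 gained it and 0 turned direction. Depth limits Blk and Pax5 most, with 3 counts or fewer in 2 and 3 libraries.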
